A study of Mus musculus with 27 samples.

Results

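Intraepithelial lymphocytes are T cells that lie between the epithelial cells of the gut. The 10 genes examined here are genes of these cells, though not of these cells alone. They are the CD3 chains *Cd3e* and *Cd3g* of the T cell receptor complex, the co-receptor chains *Cd8a* and *Cd8b1*, and the integrin chain *Itgae* (CD103). The others are the granzymes *Gzma* and *Gzmb*, the chemokines *Ccl5* and *Xcl1*, and the receptor *Cd160*. The 10 genes were chosen by name as T cell, tissue residence and cytotoxic genes of intraepithelial lymphocytes, and all 10 were found by Ensembl identifier among the 46078 genes of the count tables. Of these, 9 passed the filter on low counts and were tested, and *Xcl1* did not.

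The samples were ileal epithelium, scraped from the distal ileum of 27 male C57BL/6 mice at postnatal day 56 and measured by RNA-Seq. Mice received sesame oil vehicle or TCDD at one of 8 doses (from 0.01 to 30 µg/kg, about evenly spaced on a log scale) by gavage every 4 d for 28 d, with 3 mice in each of 9 groups. TCDD (2,3,7,8-tetrachlorodibenzo-*p*-dioxin) is a persistent ligand of the aryl hydrocarbon receptor (AhR). No mouse carried an engineered allele, and cages, which held several mice each, were not identified in the labels, so mice of a group may have shared a cage.

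Intraepithelial lymphocytes bind the epithelium through CD103, which pairs with the β7 integrin chain and holds E-cadherin on epithelial cells, and many store granzymes ready for release. Most carry CD8 either as a pair of α chains or as an α and a β chain. *Cd8b1* encodes the β chain, which conventional CD8 T cells carry and many resident intraepithelial cells lack. AhR is known to be needed for these lymphocytes to persist in the gut of mice. A scraping is a mixture of cells, so in these samples fewer lymphocytes and less RNA per lymphocyte cannot be told apart.

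Each library had between 12.3 and 17.1 M reads on genes. Index use and a clock gene score moved with dose, and fits with each as a covariate are given for *Cd8b1* and, after the related genes, for the lists. The index sequences in the file names were used a first time for 16 mice (vehicle to 0.3 µg/kg, and 1 of the 3 mice at 1 µg/kg) and again for 11 mice (the other 2 mice at 1 µg/kg and all mice from 3 to 30 µg/kg), which leaves index use confounded with dose outside 1 µg/kg. A score of 14 circadian clock genes (the mean log2 level, centred on each gene and with the sign of 4 genes reversed) lay between -1.44 and -1.19 in the vehicle group and between 1.05 and 1.81 in the 6 mice at 10 and 30 µg/kg. *Cyp1a1*, the classic AhR target, had 0 to 3 counts in the vehicle group, 6587 to 8395 counts at 10 µg/kg and 14821 to 27996 counts at 30 µg/kg, and was called from 1 µg/kg (edgeR adjusted p = 0.0084). Enterocyte genes summed to between 18064 and 34775 CPM (counts per 1 M reads on genes) in the 27 mice, and the 10 lymphocyte genes to between 187 and 437 CPM.

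All 10 genes had at least 1 count in every mouse. Levels between genes were compared per kb of exon, in the 3 vehicle mice. *Gzma*, a granule protease, was highest at 114 ± 12.6 CPM per kb (SD, n = 3), followed by the chemokine *Ccl5* at 51.0 ± 5.25 and *Gzmb* at 34.0 ± 4.43. *Itgae* (6.77 ± 0.49), *Cd8a* (5.79 ± 0.02), *Cd3e* (3.84 ± 0.22) and *Cd3g* (2.64 ± 0.22 CPM per kb) followed at lower levels. In this order each of these genes stood apart from the next, with no overlap between mice. *Cd8b1* (1.33 ± 0.26) and *Cd160* (1.31 ± 0.14 CPM per kb) came next and overlapped each other, and *Xcl1* was lowest at 0.59 ± 0.40. Counts per mouse set the precision: over the 27 mice *Gzma* had 881 to 2090 counts, *Cd8a* 156 to 471, *Cd160* 20 to 71, *Cd8b1* 1 to 37 and *Xcl1* 1 to 20.

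**Figure D1:**
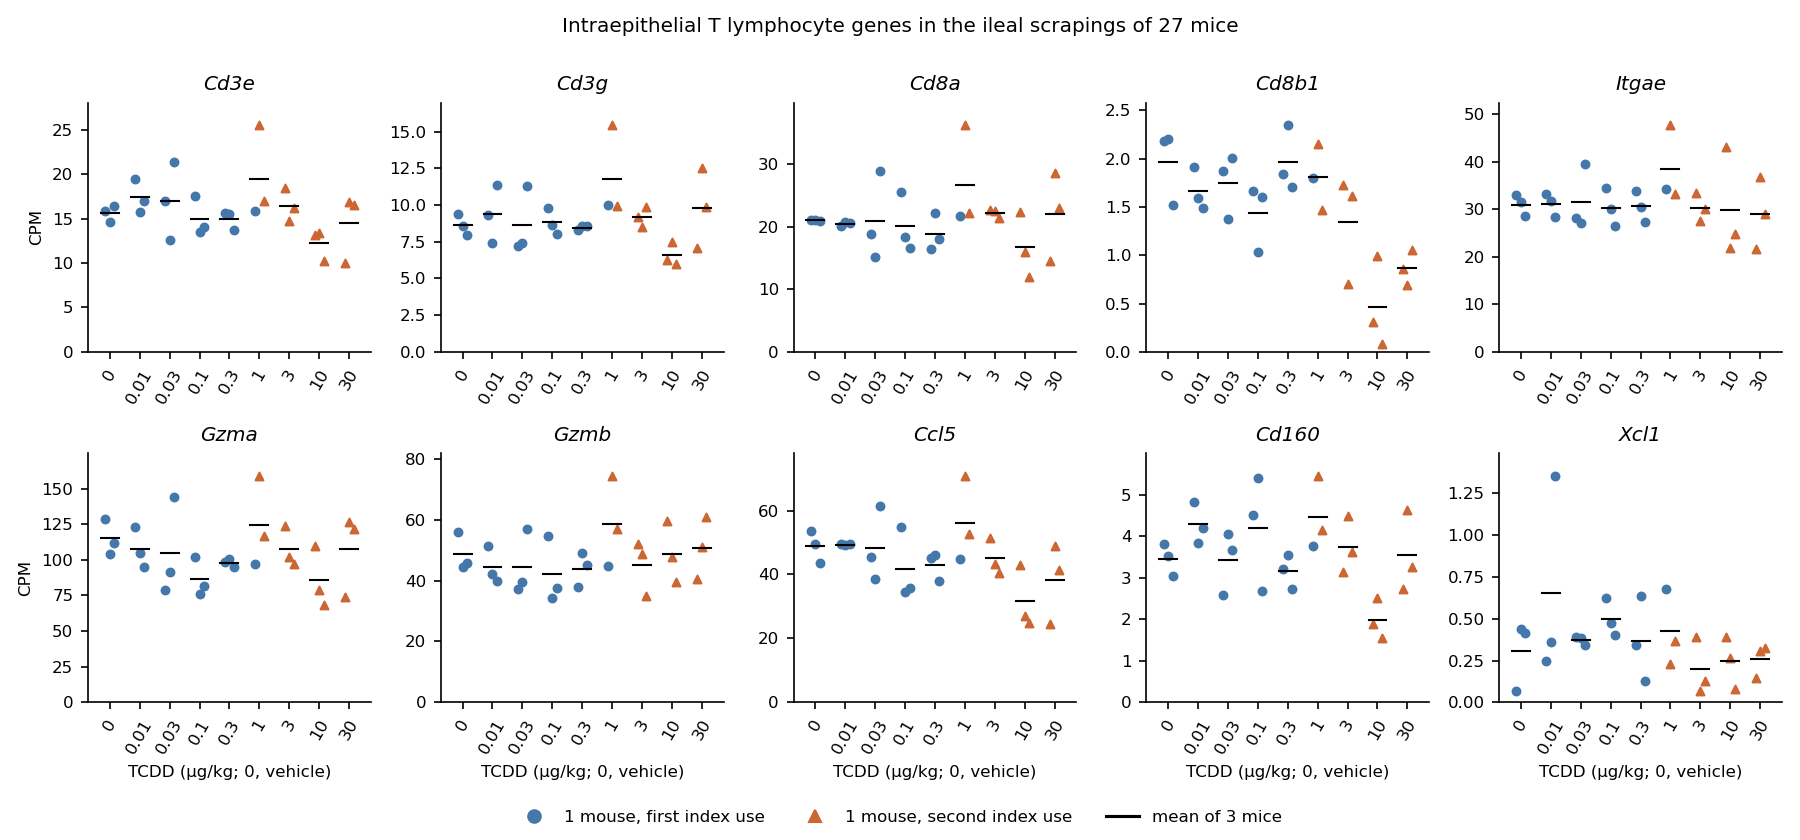
CPM of the 10 genes in each mouse by TCDD dose (0 is vehicle), with the index use of each library as the symbol and the mean of 3 mice as a line. The *Cd8b1* values at 10 and 30 µg/kg (0.0771 to 1.06 CPM) lie below all 3 vehicle mice (1.52 to 2.2 CPM), while most other genes overlap vehicle at most doses.

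Of the 9 genes tested, 0 were called at 0.01, 0.03, 0.1 and 0.3 µg/kg, where a call is an edgeR adjusted p of at most 0.05 and a change of at least 1.5-fold. At these doses 0% of all 16741 genes tested were called. At 1 µg/kg 0 of 9 were called (0.591% of all genes) and at 3 µg/kg 0 of 9 (1.11%). At an unadjusted p of at most 0.05, 0 members passed at these doses except 1 at 1 µg/kg, and DESeq2 also called 0 at each of the 6 doses. At 10 µg/kg 1 of 9, *Cd8b1*, was called against 2.53% of all genes (0.771% lower and 1.76% higher), and at 30 µg/kg 0 of 9 against 9.4%. At 30 µg/kg 1 member, *Cd8b1*, had an unadjusted p of at most 0.05, and DESeq2 called it. Between 30 and 3 µg/kg 0 of 9 were called (0.89% of all genes), with 0 at an unadjusted p of at most 0.05 and 0 by DESeq2. Over the dose ranks, 1 of 9 (*Cd8b1*) was called for a trend, where 26.2% of all genes were, and 1 of 9 (*Cd8b1*) for any difference among the 9 groups, where 9.53% were.

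**Figure D2:**
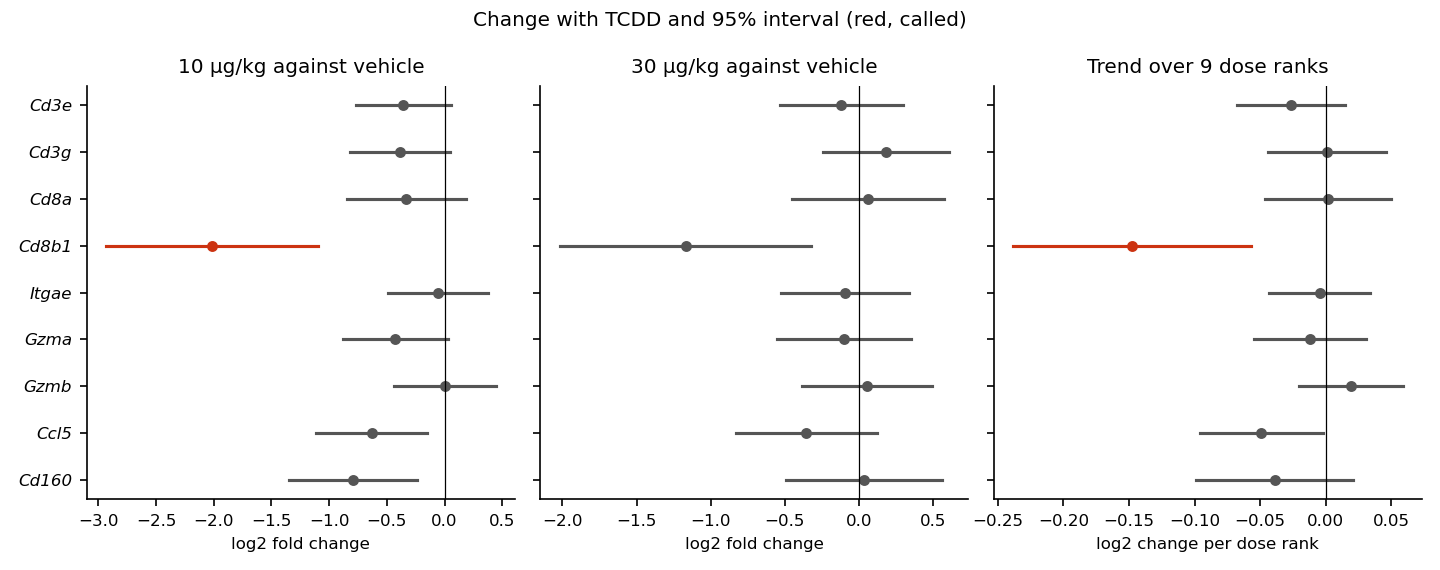
Log2 fold change at 10 and 30 µg/kg against vehicle and log2 change per dose rank for the 9 tested genes, with 95% intervals. At 10 µg/kg the interval of *Cd8b1* (-2.93 to -1.10) lies apart from 0, and its trend is the other value called. All other genes are drawn in grey as not called.

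*Cd8b1* (chromosome 6: 71322788 to 71337494, plus strand, GRCm38), the CD8 β chain, had 31, 30 and 22 counts in the 3 vehicle mice, or 2.18, 2.2 and 1.52 CPM. From 0.01 to 1 µg/kg the 15 mice had between 13 and 37 counts, and at 3 µg/kg the mice had 22, 10 and 25. At 10 µg/kg the counts were 4, 15 and 1, or 0.314, 0.990 and 0.0771 CPM, and at 30 µg/kg 12, 9 and 13, or 0.859, 0.696 and 1.06 CPM. All 6 mice at the top doses were below the lowest vehicle mouse, while at 3 µg/kg 1 mouse was below vehicle and 2 overlapped it. The counts are few. The exact Poisson interval (95%, counting error only) of the 4 counts ran from 1.09 to 10.2 and that of the single count from 0.0253 to 5.57, against 13.8 to 33.3 for the lowest vehicle mouse.

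*Cd8b1* fell 4.05-fold at 10 µg/kg (log2 fold change -2.02 ± 0.44 (SE), 95% interval -2.93 to -1.10, edgeR adjusted p = 0.0105). At 30 µg/kg it was 2.25-fold lower and not called (-1.17 ± 0.41, interval -2.02 to -0.32, edgeR adjusted p = 0.0505), and DESeq2 gave an adjusted p of 0.0234 there. The values at 30 and 3 µg/kg did not differ in the test (edgeR adjusted p = 0.557). Over the 9 dose ranks the level fell by 0.15 per rank on the log2 scale (-0.15 ± 0.04, adjusted p = 0.0135).

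The *Cd8b1* call rested on few mice and could not be separated from index use. The log2 fold change at 10 µg/kg was -1.80 (adjusted p = 0.0578) without mouse 57 and -1.55 (0.0598) without mouse 59, the pair with 4 and 1 counts, and -3.28 (0.00038) without mouse 58, which had 15. With index use in the model the log2 fold change was -2.01 ± 0.74 (SE) and the adjusted p 0.291, against an SE of 0.44 without it. With the clock score it was -1.52 ± 0.78 and the adjusted p 0.9999. Among the 16 mice of the first index use the trend was -0.01 per rank (adjusted p = 0.962), and among the 11 of the second -0.44 (adjusted p = 0.374). Of 1434 stretches of 50 bases in *Cd8b1* transcripts, 86 also occur in other genes, whose reads the counting can lose.

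*Cd8a*, the α chain of the same co-receptor, had 21.1, 21.1 and 21.0 CPM in vehicle mice. It had 22.3, 15.97 and 12.03 CPM at 10 µg/kg, and 14.5, 28.5 and 23.0 CPM at 30 µg/kg, so that both groups spanned the vehicle values. The log2 fold change was -0.33 (interval -0.85 to 0.19) at 10 and 0.06 (interval -0.45 to 0.57) at 30 µg/kg, neither called (edgeR adjusted p = 0.550 and 0.893).

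The ratio of *Cd8a* to *Cd8b1* counts compares both chains within a mouse and does not depend on how libraries are scaled. Vehicle mice had 9.68, 9.57 and 13.8 *Cd8a* counts per *Cd8b1* count, and the 15 vehicle to 0.3 µg/kg mice lay between 8.91 and 17.7. The 6 mice at 1 and 3 µg/kg lay between 12.03 and 32.1, the highest being mouse 51 (3 µg/kg). At 10 µg/kg the ratio was 71.0, 16.1 and 156, and at 30 µg/kg 16.8, 41.0 and 21.8. All 6 were above every vehicle mouse, and 3 of them (16.1, 16.8 and 21.8) were below mouse 51. On the log2 scale the mean ratio was 3.44 ± 0.30 (SD, n = 3) in vehicle mice and 4.62 ± 0.66 at 30 µg/kg, a difference of 1.19 (two-sided exact permutation test over mice, p = 0.1, the lowest value possible with 3 against 3). The difference at 10 µg/kg was 2.38, also with an exact p of 0.1.

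**Figure D3:**
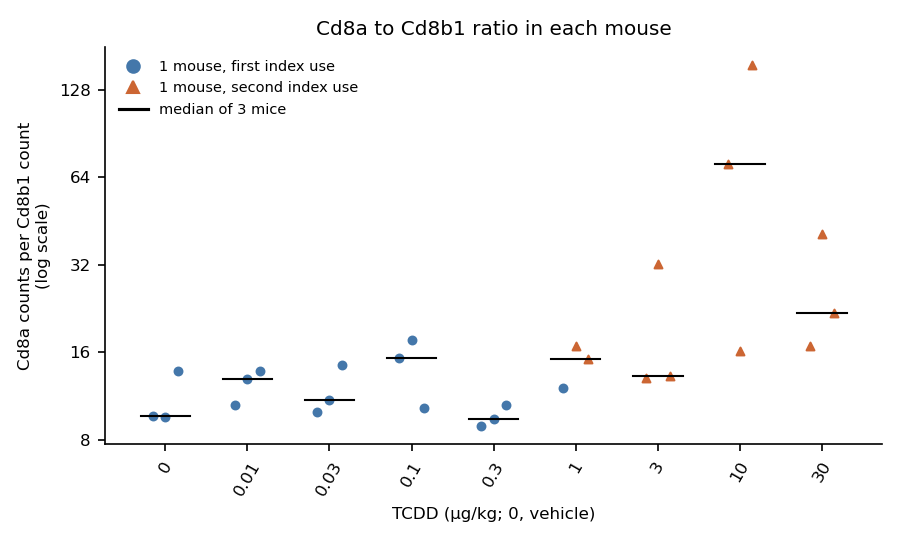
*Cd8a* counts per *Cd8b1* count in each mouse by dose (log scale), with the median of 3 mice as a line. The 6 mice at 10 and 30 µg/kg lie between 16.1 and 156, above the vehicle mice (9.57 to 13.8).

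*Cd3e* (CD3 ε, chromosome 9) and *Cd3g* (CD3 γ, chromosome 9) are chains of the T cell receptor complex. *Cd3e* had 15.9, 14.7 and 16.4 CPM in the vehicle group, 13.2, 13.3 and 10.2 CPM at 10 µg/kg and 10.0, 16.9 and 16.5 CPM at 30 µg/kg. *Cd3g* had 9.36, 8.58 and 7.96 CPM in the vehicle group, 6.27, 7.46 and 6.02 CPM at 10 µg/kg and 7.09, 12.5 and 9.85 CPM at 30 µg/kg. For both genes all 3 mice at 10 µg/kg were below vehicle and the mice at 30 µg/kg overlapped it. The tests called neither at 10 µg/kg (*Cd3e* log2 fold change -0.36, interval -0.77 to 0.06; *Cd3g* -0.39, interval -0.82 to 0.05). At 1 µg/kg all 3 mice were above vehicle for *Cd3g* (9.91 to 15.4 CPM), which was not called.

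*Ccl5*, a chemokine of memory and cytotoxic T cells, had 53.7, 49.5 and 43.7 CPM in the vehicle group, 43.0, 27.0 and 24.9 CPM at 10 µg/kg and 24.6, 49.0 and 41.4 CPM at 30 µg/kg. *Cd160*, a receptor that binds HVEM on epithelial cells, had 3.8, 3.52 and 3.05 CPM in the vehicle group, 1.88, 2.51 and 1.54 CPM at 10 µg/kg and 2.72, 4.64 and 3.26 CPM at 30 µg/kg. Both genes were below every vehicle mouse in all 3 mice at 10 µg/kg and overlapped vehicle at 30 µg/kg. Their log2 fold changes at 10 µg/kg were -0.63 (interval -1.11 to -0.15, edgeR adjusted p = 0.141) and -0.79 (interval -1.35 to -0.24, adjusted p = 0.104), with unadjusted p-values of 0.0121 and 0.0069. The slope of *Ccl5* was -0.05 per rank (adjusted p = 0.119) and passed (0.0282) when libraries were scaled by size only, a scaling that moved the median of all genes at 30 µg/kg to -0.11, and 0.0379 without mouse 43.

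The granzymes and CD103 were not called at any dose. *Gzmb*, the protease that cytotoxic cells use to start apoptosis in their targets, had a log2 fold change of 0.00 (interval -0.43 to 0.44) at 10 and 0.06 (interval -0.38 to 0.50) at 30 µg/kg. *Gzma* had -0.43 (interval -0.88 to 0.03) and -0.10 (interval -0.55 to 0.35). *Itgae*, which ties the cells to E-cadherin, had -0.05 (interval -0.49 to 0.38) and -0.09 (interval -0.53 to 0.34). At 10 and 30 µg/kg the intervals of *Gzmb* and *Itgae* stayed below 1.5-fold in either direction, and that of *Gzma* at 10 µg/kg did not. This did not hold at every dose, as at 1 µg/kg the intervals of *Gzmb* and *Itgae* reached 1.63-fold and 1.66-fold higher. The ratio of *Gzmb* to *Gzma* counts, picked out after its values were seen, was 0.408 to 0.435 in the vehicle group, 0.541 to 0.606 in mice given 10 µg/kg and 0.404 to 0.545 in those given 30 µg/kg. *Xcl1*, a chemokine for cross-presenting dendritic cells, had counts of 1, 6 and 6 in the vehicle group, 5, 4 and 1 at 10 µg/kg and 2, 4 and 4 at 30 µg/kg, too few for a difference to be detectable at this depth.

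As many as 5 of the 10 genes (*Cd3e*, *Cd3g*, *Cd8b1*, *Ccl5* and *Cd160*) were below all vehicle mice in all 3 mice at 10 µg/kg, where 11.8% of the 16741 genes tested were, and 0 were above, where 11.5% were. At 30 µg/kg 1 of 10 (*Cd8b1*) was below (13.3% of all genes) and 0 above (13.7%), a share near the background. At 1 µg/kg 3 of 10 (*Cd3g*, *Cd8a* and *Itgae*) were above (10.3%) and 0 below (10.2%), and at 3 µg/kg *Cd8a* was above (12.4%) and 0 below (12.1%). The lower doses also had single genes apart from vehicle. *Cd8a* was below (5.54% of all genes) and *Cd160* above (5.63%) at 0.01 µg/kg. *Gzma* was below at 0.1 µg/kg (6.68%, with 7.01% above) and at 0.3 µg/kg (8.49%, with 8.06% above), and at 0.03 µg/kg 0 genes were apart (5.55% below and 4.49% above). The median log2 fold change of the 9 tested genes was -0.39 at 10 µg/kg against -0.0031 over all genes, -0.09 against 0.02 at 30 µg/kg, and 0.31 (0.305) against 0.0040 at 1 µg/kg. By the mean of the members, single mice stood out at 1 and 30 µg/kg, while at 10 µg/kg all 3 mice had means below 0. Mouse 57 (10 µg/kg) was mixed, being below vehicle for the 5 genes that were below in all 3 mice. It was above all vehicle mice for *Cd8a* (22.3 CPM), *Itgae* (43.2 CPM) and *Gzmb* (59.5 CPM). Its summed CPM of the 10 genes (300) lay within the vehicle group (280 to 324). The mean of the 10 genes, each centred on its own mean log2 CPM, was highest in mouse 43 (1 µg/kg, 0.59) and lowest in mouse 59 (10 µg/kg, -0.88) and mouse 65 (30 µg/kg, -0.50). The other 2 mice at 10 µg/kg had -0.20 and -0.33, and the other 2 at 30 µg/kg 0.15 and 0.05, against a range of -0.17 to 0.36 in the 15 mice from vehicle to 0.3 µg/kg.

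Over the 27 mice the genes followed each other to different degrees, given here as a description of libraries that share groups and scaling. *Ccl5* was closest to the mean of the other 9 genes (Spearman rho 0.84, Pearson r 0.90), followed by *Cd3e* (0.80, 0.88) and *Cd3g* (0.75, 0.78). *Gzmb* (0.44, 0.45), *Cd8b1* (0.39, 0.55) and *Xcl1* (0.12, 0.27) were the least close, and the latter pair had the lowest counts. Among 16732 other genes tested, the 10 whose levels were most like the mean of the members were *Dtx1* (rho 0.83), *Pqlc2* (0.77), *4930458D05Rik*, *Itgb7* and *Klrd1* (each 0.72), *Lcp2* and *Prkch* (each 0.71), *Ctsw* (0.70), *Miip* and *Sept1* (each 0.68). Of these, *Itgb7*, *Klrd1* and *Ctsw* are in the lists of related genes described next.

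The partners of the 10 genes were also measured. *Cdh1*, which encodes the E-cadherin that CD103 binds, had 974 ± 31.4 CPM (SD, n = 3) in the vehicle group against 831 ± 79.3 CPM at 30 µg/kg and was not called (log2 fold change -0.23, edgeR adjusted p = 0.0985). *Itgb7*, the β7 chain that pairs with CD103, had 13.97 ± 1.62 CPM in the vehicle group against 10.5 ± 2.46 CPM at 10 µg/kg (-0.41, adjusted p = 0.243). *Tnfrsf14*, which encodes HVEM, had 29.1 ± 2.81 and 26.7 ± 4.67 CPM in the vehicle and 30 µg/kg groups (-0.13, adjusted p = 0.517), and neither *Ccl25*, the chemokine that draws lymphocytes to the small intestine, nor its receptor *Ccr9* was called, with log2 fold changes of 0.04 and -0.61 at 10 µg/kg and 0.19 and -0.07 at 30 µg/kg. *Ccr9* had 6.6 to 8.03 CPM in the vehicle group and 3.93 to 5.96 CPM at 10 µg/kg, without overlap (edgeR adjusted p = 0.101). Of all genes, 11.8% were below vehicle in all 3 mice at this dose. *Xcr1*, the receptor for XCL1, had 1.1 ± 0.503 CPM in the vehicle group against 0.876 ± 0.201 CPM at 30 µg/kg. *Prf1* (perforin, the pore through which granzymes enter) had 1.54 ± 0.198 and 1.515 ± 0.845 CPM in these groups, and *Cd3d* 4.56 ± 0.884 and 3.6 ± 0.107 CPM. None of these differences was called. All 3 mice were also below vehicle for *Cdh1* at 30 µg/kg, where 13.3% of all genes were. The same held for *Cd3d* at 0.3, 3, 10 and 30 µg/kg (8.49, 12.1, 11.8 and 13.3% of all genes).

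*Il15*, the cytokine that epithelial and dendritic cells present to intraepithelial lymphocytes, rose. It had 12.2, 14.6 and 13.4 CPM in the vehicle group, 20.4, 13.1 and 24.7 CPM at 10 µg/kg and 14.97, 43.7 and 32.7 CPM at 30 µg/kg. The 3 mice at 30 µg/kg were above vehicle, 1 of them narrowly, where 13.7% of all genes were above in all 3 mice. The log2 fold change at 30 µg/kg was 1.18 ± 0.25 (edgeR adjusted p = 0.0025), where 5.42% of all genes were called higher, and the slope 0.125 per rank (adjusted p = 0.00025). *Il2rb*, a chain of the IL-15 receptor on lymphocytes, fell at 30 µg/kg (log2 fold change -0.63 ± 0.22, adjusted p = 0.0441), where 3.98% were called lower, from 11.7 ± 1.45 to 7.54 ± 2.01 CPM.

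Genes of T cell receptor signalling formed a list of 20 other genes, all tested. Of these, 2 fell at 10 µg/kg, among them *Cd5*, where 0.771% of all genes were called lower. At 30 µg/kg 1 of 20, *Thy1*, fell, a share near the 3.98% of all genes called lower. *Cd5*, an inhibitory co-receptor of conventional T cells, went from 2.18 ± 0.486 CPM in the vehicle group to 1.01 ± 0.32 CPM at 10 µg/kg (log2 fold change -1.11 ± 0.27, edgeR adjusted p = 0.0184). *Thy1*, a surface protein of T cells and of other cell types, went from 4.32 ± 0.881 to 2.77 ± 0.47 CPM at 30 µg/kg (-0.64 ± 0.22, adjusted p = 0.0404). For the trend 6 of 20 fell, among them *Cd5*, *Thy1*, *Cd6*, *Lat* and *Cd247* (-0.15 to -0.09 per rank), and 0 rose, where 12.8% of all genes were called lower and 13.4% higher. The median slope of the list was -0.05 against 0.00013 for all genes. *Cd247*, the CD3 ζ chain, had 2.68 ± 0.507 CPM in the vehicle group against 1.59 ± 0.707 CPM at 30 µg/kg.

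**Figure D4:**
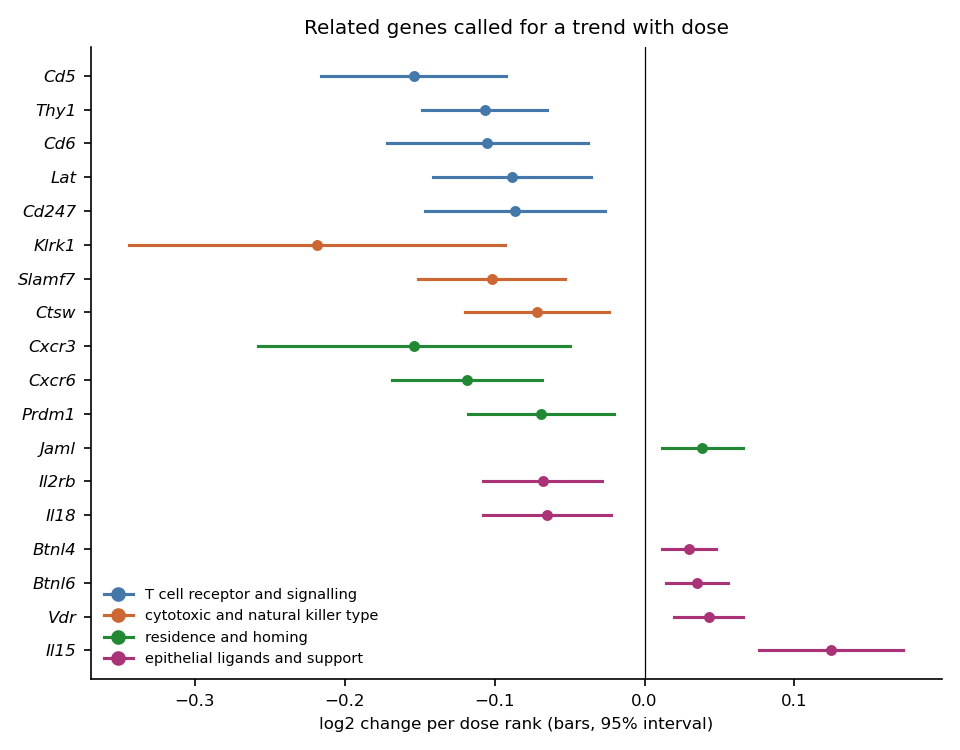
Log2 change per dose rank with 95% intervals for genes of 4 related lists that the text names and that were called for a trend (edgeR adjusted p of at most 0.05), coloured by list. All 5 receptor signalling genes and all 3 cytotoxic genes shown are below 0, and *Il15* is the highest at 0.125 per rank. Genes not called are left out.

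Of the cytotoxic and natural killer type genes, 14 of 19 were tested. Among them 2 fell at 10 µg/kg (0.771% of all genes did): *Ctsw*, a cathepsin of cytotoxic cells, from 5.06 ± 0.363 to 2.65 ± 0.386 CPM (log2 fold change -0.93 ± 0.19, edgeR adjusted p = 0.0069), and *Klrk1* (NKG2D, an activating receptor), which had 9 to 14 counts in the vehicle group and 0 to 2 counts at this dose (adjusted p = 0.0202). At 30 µg/kg 0 of 14 were called, and for the trend 3 of 14 fell (*Klrk1*, *Slamf7* and *Ctsw*) against 12.8% of all genes. Of 15 tested residence and homing genes, *Cxcr3* fell at 10 µg/kg (-1.73 ± 0.47, adjusted p = 0.0371) and 2 fell at 30 µg/kg (3.98% of all genes did). *Cxcr6*, which marks tissue T cells, went from 2.83 ± 0.369 to 1.28 ± 0.053 CPM (-1.14 ± 0.29, adjusted p = 0.0087), and *Cxcr3*, a receptor of effector T cells, from 1.07 ± 0.354 to 0.335 ± 0.251 CPM (-1.66 ± 0.47, adjusted p = 0.0164). For the trend 4 of 15 fell, among them *Cxcr3*, *Cxcr6* and *Prdm1*, and 1 rose (*Jaml*, 0.04 per rank), against 12.8 and 13.4% of all genes.

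Of 19 epithelial ligand and support genes, all tested, 1 rose (*Il15*) and 2 fell (*Il18* and *Il2rb*) at 30 µg/kg. Of all genes, 5.42% were called higher and 3.98% lower at this dose. For the trend 4 rose (*Il15*, *Vdr*, *Btnl6* and *Btnl4*) and 2 fell (*Il2rb* and *Il18*), so that 6 of 19 were called against 26.2% of all genes, a share near the background. The butyrophilin-like genes *Btnl4* and *Btnl6*, whose family on enterocytes supports γδ lymphocytes, had slopes of 0.03 per rank each (adjusted p = 0.0122 and 0.0111), with *Btnl6* at 439.6 ± 14 CPM in the vehicle group against 544 ± 104 CPM at 30 µg/kg. Among 6 tested genes of innate lymphocytes and Th17 cells, 2 rose at 30 µg/kg, where 5.42% of all genes were called higher. *Kit*, the receptor for stem cell factor, was 1 of them (0.76 ± 0.16, adjusted p = 0.0018). *Cd4*, the co-receptor of helper T cells, was the 1 of 4 tested CD4 T cell genes called for the trend (-0.10 ± 0.03 per rank, adjusted p = 0.0057). Of all genes, 26.2% were called for the trend and 12.8% were called lower. *Cd4* had 5.17 ± 0.715 CPM in the vehicle group against 3.98 ± 1.15 CPM at 30 µg/kg, where 1 of 3 mice was below vehicle. All 3 mice were above vehicle at 0.01, 0.03 and 0.3 µg/kg (5.63, 4.49 and 8.06% of all genes).

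With index use in the model, 195 of 16741 genes were called for a trend in place of 4379. Of the receptor signalling, cytotoxic, homing, epithelial and CD4 genes, 0 were then called at 10 or 30 µg/kg, and *Il2rb* alone was called for the trend. Only the group at 1 µg/kg holds both index uses, so contrasts of 10 or 30 µg/kg with vehicle lose precision in this fit. A call lost there does not show that index use accounts for the change. With only the 6 mice of vehicle and 1 dose compared, *Ctsw* alone of these lists was called at 10 µg/kg and *Cxcr6* alone at 30 µg/kg. Among the calls lost there were those of *Cd5*, *Klrk1*, *Cxcr3*, *Thy1*, *Il15* and *Il2rb*. Leaving out the 3 mice of highest smooth muscle counts removes mice 57 and 58 at 10 µg/kg and mouse 65 at 30 µg/kg. Calls at 10 µg/kg are therefore not given for this setting, and those at 30 µg/kg rest on fewer mice. Without these mice *Thy1*, *Cxcr3* and *Il2rb* were no longer called at 30 µg/kg, while *Cxcr6*, *Il15* and *Il18* were. *Slamf7* and *Vdr* were called there in addition. Of the innate list, *Kit* alone was still called with index use, at 30 µg/kg and for the trend. With the clock score in the model 7 genes were called for a trend, and of all these lists and the innate list 0 genes were called at 10 or 30 µg/kg or for the trend.

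Markers of other cell types moved unevenly, and their part in the values above was not tested. Plasma cell genes summed to 1840 to 2369 CPM in the vehicle group and to 694 to 1307 CPM at the 2 top doses, and 5 of 9 tested fell at 30 µg/kg (3 at 10 µg/kg and 7 for the trend), against 3.98, 0.771 and 12.8% of all genes called lower. B cell and Peyer patch genes ranged from 49.1 to 157 CPM in the vehicle group and overlapped it at the top doses (67.0 to 184 CPM). Smooth muscle genes, 0 of 9 called, were highest in mouse 58 (462 CPM, 10 µg/kg), mouse 65 (407, 30 µg/kg) and mouse 57 (298, 10 µg/kg), against 33.4 to 133 CPM in the vehicle group and up to 287 CPM in the other groups. Mouse 65 also had the lowest enterocyte sum (18064 CPM) and low values for the lymphocyte genes, while mouse 59, with 1 *Cd8b1* count, had a smooth muscle sum of 56.1 CPM. No marker gene of these lists was at 0 in every mouse. Without mice 57, 58 and 65, *Cd8b1* at 30 µg/kg had a log2 fold change of -1.19 (adjusted p = 0.0212) and its trend an adjusted p of 0.0576.

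**Figure D5:**
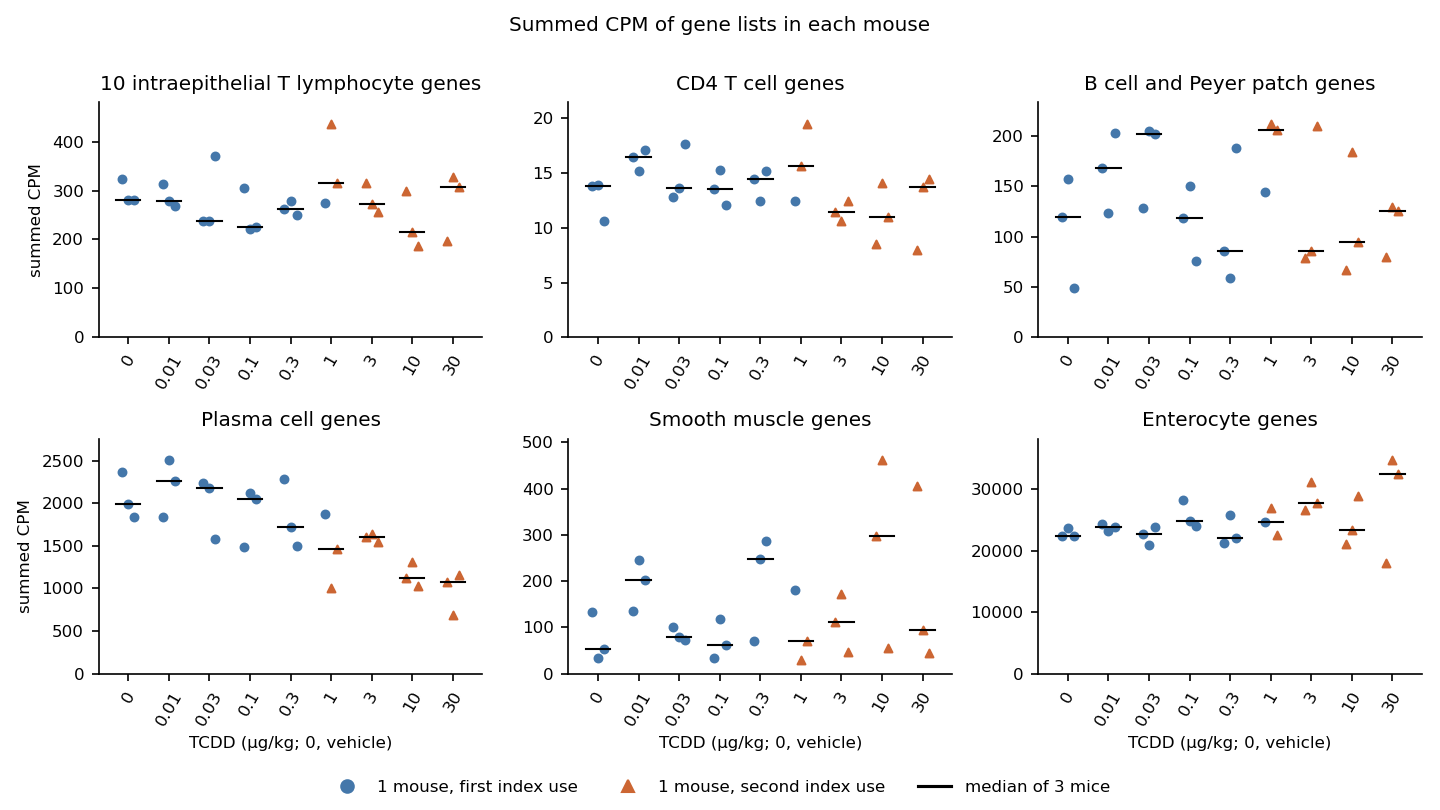
Summed CPM of the 10 lymphocyte genes and of 5 lists of marker genes of other cells in each mouse by dose, with the median of 3 mice as a line. The lymphocyte sum at 10 and 30 µg/kg (187 to 327 CPM) overlaps vehicle (280 to 324 CPM), the plasma cell sum does not, and smooth muscle is highest in 1 mouse at 30 and 2 mice at 10 µg/kg.

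AhR binds DNA at a core motif, GCGTG on one strand and CACGC on the other, which makes a description of the promoters of the 10 genes of interest beside an AhR ligand. In the RefSeq windows (GRCm38.p6, 250 bases before to 50 after a start), 7 of the 10 genes matched, with 8 windows. Of the 8 windows, 2 held the motif on either strand, as did 32.4% of all 32851 windows. The matches and that of *Cyp1a1* are shown with 10 bases on each side, 5′ to 3′ on the strand of the gene, with the motif in capitals.
Cd8a (chr6:71373448-71373472, plus strand, after the start): cccgaccctaCACGCctcccccacc
Cd160 (chr3:96814500-96814524, minus strand, second start): aacacactcaGCGTGagcccccagc
Cyp1a1 (chr9:57697549-57697573, plus strand, before the start): agataaggagGCGTGgccaacagac
*Cd8a* and *Cd160* were not called at any dose, whereas *Cyp1a1* was called from 1 µg/kg. The windows of *Cd3e*, *Cd3g*, *Gzma*, *Gzmb* and *Xcl1* held no match, and *Cd8b1*, *Itgae* and *Ccl5* were not matched.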

How the data were processed

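Raw read counts per Ensembl gene, 1 table per mouse, were deposited by the authors with no normalization. Per the submitters' processing notes and the study's methods, reads were checked with FastQC 0.11.3, trimmed with Trimmomatic 0.33, aligned to GRCm38 with TopHat2 2.1.0, converted with SAMtools 1.2.0 and counted, with HTSeq 0.6.1 among the tools named. Reads on no gene were 44.5 to 49.5% of the uniquely aligned reads and those on several genes 0.607 to 1.02%. Both were left out. Reads aligned to several places were not counted, which lowers genes that share sequence. The use of strand in counting is not given in the sources used here, and *Cd3e*, *Cd160* and *Xcl1* share exon bases with a gene on the other strand.

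Samples were grouped by the dose in the labels. Mice are separate animals, and replicate numbers only name them. The 27 pairs of mice of a dose all differed by more than sampling noise. Symbols came from GENCODE M21 (45143 of 46078 genes). edgeR 4.0.16 (R 4.3.3) was fitted once to all 27 mice with TMM scaling after filterByExpr (16741 genes kept), with the quasi-likelihood test and Benjamini-Hochberg adjustment over all genes tested. A trend is the slope over dose ranks 0 to 8. Alternatives used DESeq2 1.42.0, other scaling and filters, covariates and left-out mice. Scripts were tested on simulated data. CPM are counts per 1 M reads on genes, on the TMM scale. The 10 genes, the 13 other lists and the comparisons were chosen with earlier results of these data known. The rule for named genes took the 10, their partners, and genes of other lists called at a dose or for the trend, with lists of other cell types given mainly as counts. Poisson intervals cover counting error only. Some genes of the related lists enter the counts and are not reported here by name.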

Additional observations from a re-analysis of the deposited data

How the results depend on the processing

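The number of members called was 0 at 0.01 to 3 µg/kg and between 30 and 3 µg/kg under every alternative run. At 10 µg/kg it was 0 in place of 1 with at least 10 counts in every mouse (a filter that removes *Cd8b1*), with index use or the clock score as a covariate and with the 6 mice compared alone, and 0 to 1 leaving out a mouse (0 without mouse 57 or 59). At 30 µg/kg it was 1 in place of 0 with library size only, with DESeq2 and without the 3 mice of highest smooth muscle counts. For the trend it was 2 in place of 1 with library size only, 1 to 2 leaving out a mouse (2 without mouse 43), and 0 with at least 10 counts in every mouse, with either covariate, within either index use, and without the 3 mice. For any difference among groups it was 2 with DESeq2 or no filter, 0 with at least 10 counts in every mouse or either covariate, and 0 to 2 leaving out a mouse. The cause of these changes was not tested. The clock score and the 3 mice were chosen after seeing the data. The *Cd8a* to *Cd8b1* ratio moved by less than its spread when 0.5 was added to the counts. It also did so when a mouse was left out, but this had to be so. Leaving out 1 of 3 mice cannot move a group mean by as much as its SD, which was 1.66 on the log2 scale at 10 µg/kg. That step therefore does not show how stable the ratio is, and mice 57 and 59 had only 4 and 1 *Cd8b1* counts.

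Changes near 0 that were never called turned sign in some settings. At 30 µg/kg, leaving out a mouse gave log2 fold changes of -0.24 to 0.061 for *Cd3e*, -0.032 to 0.34 for *Cd3g*, -0.17 to 0.26 for *Cd8a*, -0.30 to 0.055 for *Itgae*, -0.23 to 0.079 for *Gzma*, -0.093 to 0.17 for *Gzmb* and -0.21 to 0.16 for *Cd160*. Library size only gave -0.089 for *Cd8a*, -0.086 for *Gzmb* and -0.11 for *Cd160*. Index use gave -0.15 for *Cd3g*, -0.36 for *Cd8a*, -0.49 for *Gzmb* and -0.31 for *Cd160*. The clock score gave 0.15 for *Cd3e*, -0.34 for *Cd3g*, 0.11 for *Itgae*, 0.35 for *Gzma* and -0.083 for *Cd160*. Without the 3 mice *Cd3e* had 0.059, *Itgae* 0.053 and *Gzma* 0.078.

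Slopes per dose rank, leaving out a mouse, were -0.014 to 0.0096 for *Cd3g*, -0.012 to 0.013 for *Cd8a* and -0.017 to 0.0049 for *Itgae*. For *Cd3g* the slope was -0.00016 with upper-quartile scaling, -0.014 with library size only, -0.031 with index use, -0.13 within the second index use and -0.054 with the clock score. For *Cd8a* it was -0.013 with library size only, -0.051 with index use, -0.020 and -0.14 within the first and second index use and -0.028 with the clock score. For *Gzmb* it was -0.043 with index use and -0.030 and -0.085 within the first and second. For *Itgae* it was 0.0051 within the first index use and 0.0043 without the 3 mice, and for *Gzma* 0.0014 without the 3 mice.

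Low counts limit *Cd8b1* and *Xcl1*, with index use and dose confounded from 3 µg/kg. No paired analysis was possible because the replicate numbers were given in accession order and pair no mice.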

Other observations

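Genes of other immune cells of the scrapings also changed. Plasma cell genes called at 30 µg/kg were *Igha* (log2 fold change -1.47 ± 0.30 (SE), edgeR adjusted p = 0.0016), *Jchain*, which links secreted IgA (-1.61 ± 0.34, adjusted p = 0.0020), *Mzb1*, *Iglc1* and *Iglc2*, and *Derl3* and *Xbp1* joined them for the trend. None of the 7 was called with index use or the clock score as a covariate. Of 15 macrophage and dendritic cell genes 1 fell at 30 µg/kg, where 3.98% of all genes did. It was *Cd14*, a co-receptor for lipopolysaccharide (-0.83 ± 0.25, adjusted p = 0.0222). Over the dose ranks 5 fell (*C1qb*, *Cd14*, *Clec9a*, *Itgax* and *Lyz2*) against 12.8% of all genes. *Ccl20*, a chemokine of the follicle-associated epithelium, fell at 3 and 10 µg/kg (-2.38 ± 0.62 and -2.998 ± 0.67, adjusted p = 0.049994 and 0.0112) and was the gene called among 14 of B cells and Peyer patches. Of all genes, 1.11% were called at 3 µg/kg and 0.771% were called lower at 10 µg/kg. *Kit* also rose at 10 µg/kg (0.73 ± 0.16, adjusted p = 0.0088), and *Il1r1* fell over the dose ranks (adjusted p = 0.0130). Of 12 enterocyte genes, 3 rose over the dose ranks (*Anpep*, *Krt18* and *Vil1*) against 13.4% of all genes. With index use or with the clock score as a covariate, 0 of the macrophage, B cell and enterocyte genes were called at 10 or 30 µg/kg or for the trend, and neither were *Kit* at 10 µg/kg and *Il1r1*. Of 7 tested AhR targets, *Ahrr*, *Cyp1a1*, *Cyp1b1* and *Tiparp* rose at 30 µg/kg, and of the 14 clock genes 13 were called there, 10 higher and 3 lower. Of all genes, 5.42% were called higher and 3.98% lower at this dose. With index use as a covariate *Tiparp* was not called there, and the other 3 AhR targets were.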
